A study of Homo sapiens with 14 samples.

Results

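PLB-985 cells and HL-60 cells were compared after 6 days in DMSO plus Nutridoma, with 2 libraries of each line, chosen by their sample labels (4 of the 14 RNA samples of the series). HL-60 is a human promyelocytic leukemia line, and PLB-985 is a sub-line of it. The PLB-985 cells carried histone H2B fused to mCherry and the HL-60 cells carried no transgene, so that the reporter and the line cannot be told apart. In this protocol both lines were kept in 1.3% DMSO and 2% Nutridoma-CS, a defined serum supplement, with fetal bovine serum (FBS) lowered to 0.5%. Replicates 1 and 2 were made on separate days, and each PLB-985 library was set against the HL-60 library of the same number. For comparison the same line difference was taken after 6 days in 1.3% DMSO with 9% FBS and in undifferentiated cells in 9% FBS, each with 2 libraries of each line and with no library in common.

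DMSO halts division of these promyelocytes and drives them toward a neutrophil-like cell, in which azurophil granule genes made in the promyelocyte fall silent and receptors for chemoattractants, adhesion molecules and the phagocyte oxidase are turned on. Neutrophils and monocytes share a progenitor, and CEBPE and GFI1 favour the granulocyte branch whereas EGR1 and EGR2 are regulators of the monocyte and macrophage branch. Chemokines and cytokines such as CCL3, CCL4, CXCL8 and IL1B are targets of NF-kB, a transcription factor that is released when its inhibitor NFKBIA is degraded, while genes of DNA replication are targets of E2F factors.

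Levels are given as normalized FPKM, sequenced fragments per length of transcript and size of library, scaled by the authors with 1 factor per library. A line difference is the mean of PLB-985 minus HL-60 on the scale log2(normalized FPKM + 1), which understates the change of low genes, with its standard error (SE). A row was called where the adjusted p was under 0.05, from limma with the replicate number as a block and Benjamini-Hochberg adjustment over 13778 rows. The sources used here give the replicates as made on separate days, months apart, and name no separate thaws or clones, so p-values measure the spread between these libraries.

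Among the gene lists examined, inflammatory genes were mostly lower and genes of DNA replication and division mostly higher in PLB-985. The 250 bases before the transcription start (RefSeq, GRCh38.p14, read along the strand of the gene) are shown for 3 members of each group. They are the called members with the largest differences among those that hold the kappa B motif of NF-kB or the E2F motif, in capitals. The first set is CXCL3 (chr4:74038690-74038939, minus strand), CCL20 (chr2:227813592-227813841, plus strand) and CXCL2 (chr4:74099196-74099445, minus strand), which encode chemokines for neutrophils or, for CCL20, lymphocytes. All 3 passed the filter on low values only through the HL-60 libraries where they were high, so that their direction was fixed.
CXCL3: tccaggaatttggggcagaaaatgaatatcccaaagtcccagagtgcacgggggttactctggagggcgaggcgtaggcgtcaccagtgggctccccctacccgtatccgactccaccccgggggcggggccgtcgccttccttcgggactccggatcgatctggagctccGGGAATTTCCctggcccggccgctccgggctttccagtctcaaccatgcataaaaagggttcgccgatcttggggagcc
CCL20: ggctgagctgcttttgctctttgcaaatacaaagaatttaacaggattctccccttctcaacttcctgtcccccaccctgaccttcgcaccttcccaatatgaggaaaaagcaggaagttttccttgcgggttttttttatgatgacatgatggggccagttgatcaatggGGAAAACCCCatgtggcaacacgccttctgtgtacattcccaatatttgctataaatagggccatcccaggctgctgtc
CXCL2: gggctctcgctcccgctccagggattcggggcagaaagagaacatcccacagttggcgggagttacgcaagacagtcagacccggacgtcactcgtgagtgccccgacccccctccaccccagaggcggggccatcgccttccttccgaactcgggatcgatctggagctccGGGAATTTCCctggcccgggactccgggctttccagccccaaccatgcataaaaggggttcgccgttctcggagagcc
The kappa B match began 79 bases before the start in CXCL3 and in CCL20, and 78 in CXCL2. The motif (GGG, then any 2 bases, then TTTCC, searched on both strands) was in 9 of the 17 inflammatory cytokines and NF-kB targets with a RefSeq promoter (52.9%), in 0 of 17 proliferation genes and in 473 of all 27305 promoters (1.73%). The first of these lists was drawn up to include NF-kB targets, so its share follows in part from the choice of members. The 9 were CCL20, CXCL1, CXCL2, CXCL3, IL6, NFKB1, NFKBIA, REL and TNFAIP3. The second set is TYMS (chr18:657403-657652, plus strand), thymidylate synthase, with MCM6 (chr2:135876444-135876693, minus strand) and MCM7 (chr7:100101398-100101647, minus strand), subunits of the replicative helicase.
TYMS: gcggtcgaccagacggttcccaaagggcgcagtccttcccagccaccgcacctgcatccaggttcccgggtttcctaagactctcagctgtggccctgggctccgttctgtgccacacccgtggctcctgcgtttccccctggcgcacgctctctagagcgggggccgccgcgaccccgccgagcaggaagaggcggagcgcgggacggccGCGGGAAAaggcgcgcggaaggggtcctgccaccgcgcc
MCM6: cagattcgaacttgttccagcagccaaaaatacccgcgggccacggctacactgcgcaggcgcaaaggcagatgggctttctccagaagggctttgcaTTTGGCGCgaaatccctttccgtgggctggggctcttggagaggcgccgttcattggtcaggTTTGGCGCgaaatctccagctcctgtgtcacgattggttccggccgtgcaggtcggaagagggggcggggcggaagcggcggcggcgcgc
MCM7: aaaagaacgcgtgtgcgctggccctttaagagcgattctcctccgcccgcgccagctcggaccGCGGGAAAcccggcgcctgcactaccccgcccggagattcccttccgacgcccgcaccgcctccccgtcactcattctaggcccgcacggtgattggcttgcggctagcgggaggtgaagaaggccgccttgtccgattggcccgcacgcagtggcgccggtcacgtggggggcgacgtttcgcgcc
The E2F match began 39 bases before the start in TYMS, 152 and 90 in MCM6 and 187 in MCM7. Its letters TTTCCCGC or TTTGGCGC, on both strands, were in 5 of 17 proliferation genes (29.4%), in 1 of 17 inflammatory genes (REL) and in 536 of all promoters (1.96%). A match describes the letters of the window and does not show that a factor was bound.

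Both lines carried neutrophil-like transcripts in this state. ITGAM, which encodes the integrin subunit CD11b, had 139.3 and 95.6 normalized FPKM in PLB-985 and 188.7 and 170.4 in HL-60 cells, where the undifferentiated libraries had 1.92 and 1.63 in PLB-985 and 2.51 and 2.58 in HL-60. Of 17 markers of late neutrophil maturation, 15 passed the filter on low values, which counts all 12 replicated libraries, and 14 passed it on these 4 alone. ALPL and MME, surface enzymes of the mature blood neutrophil, did not pass, ALPL with at most 0.0339 normalized FPKM and MME listed at 0 in all 4 libraries. Hemoglobins and PF4 of the erythroid and platelet lineages were listed at 0 in all 4. The 4 libraries had rank correlations of 0.824 to 0.919 across rows, and the closest pair was replicate 1 of both lines. The mitochondrial share of FPKM was 5.38% and 10.07% in PLB-985 and 7.66% and 12.6% in HL-60 libraries, lower in PLB-985 within each day, and its part in the results was not tested. Read totals were not used here. The spacing of low values put the relative depths at 0.85 and 0.94 in PLB-985 and 0.78 and 1.0 in HL-60 libraries. A value of exactly 0 can be a failed estimate. There were 12 rows with a median of 20 FPKM or more over the 12 replicated libraries that were listed at 0 in at least 1 of the 4. Among them was MYL6, a myosin light chain used by most cells, with 0 and 1153.3 FPKM in HL-60. Not all 12 need be failed estimates, since SNRPN, also among them, had 0 and 2.43e-05 FPKM in HL-60.

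Between the lines 1539 rows were higher in PLB-985 than in HL-60 and 1759 were lower, 23.9% of the rows tested (11.2% higher and 12.8% lower), and the median difference over all rows was -0.01. The size of the difference was 1 or more on the log2 scale for 581 of the higher and 759 of the lower rows. Of the rows tested, 304 had passed the filter on low values only through the group where they were high, so that their direction was fixed. Of the other 13474 rows 1517 were higher and 1625 lower. Without the replicate block 828 were higher and 995 lower. HL-60 replicate 2 had more of the inflammatory and less of the proliferation transcripts described below than HL-60 replicate 1, and without it 772 were higher and 973 lower, the remaining HL-60 library being assumed to vary like the other groups. Without PLB-985 replicate 1 the counts were 661 and 795, and without PLB-985 replicate 2 they were 586 and 785. On the FPKM without the authors' scaling the split was 2270 higher and 1304 lower, with the median of all rows at 0.12. With DMSO the same test called 10.4% of rows (708 higher, 5.14%, and 720 lower, 5.23%) and in undifferentiated cells 14.1% (1086 higher, 7.88%, and 861 lower, 6.25%). At an unadjusted limma p under 0.05, in either direction, 5040 of the 13778 rows passed with Nutridoma, 3401 with DMSO and 3799 in undifferentiated cells.

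**Figure D1:**
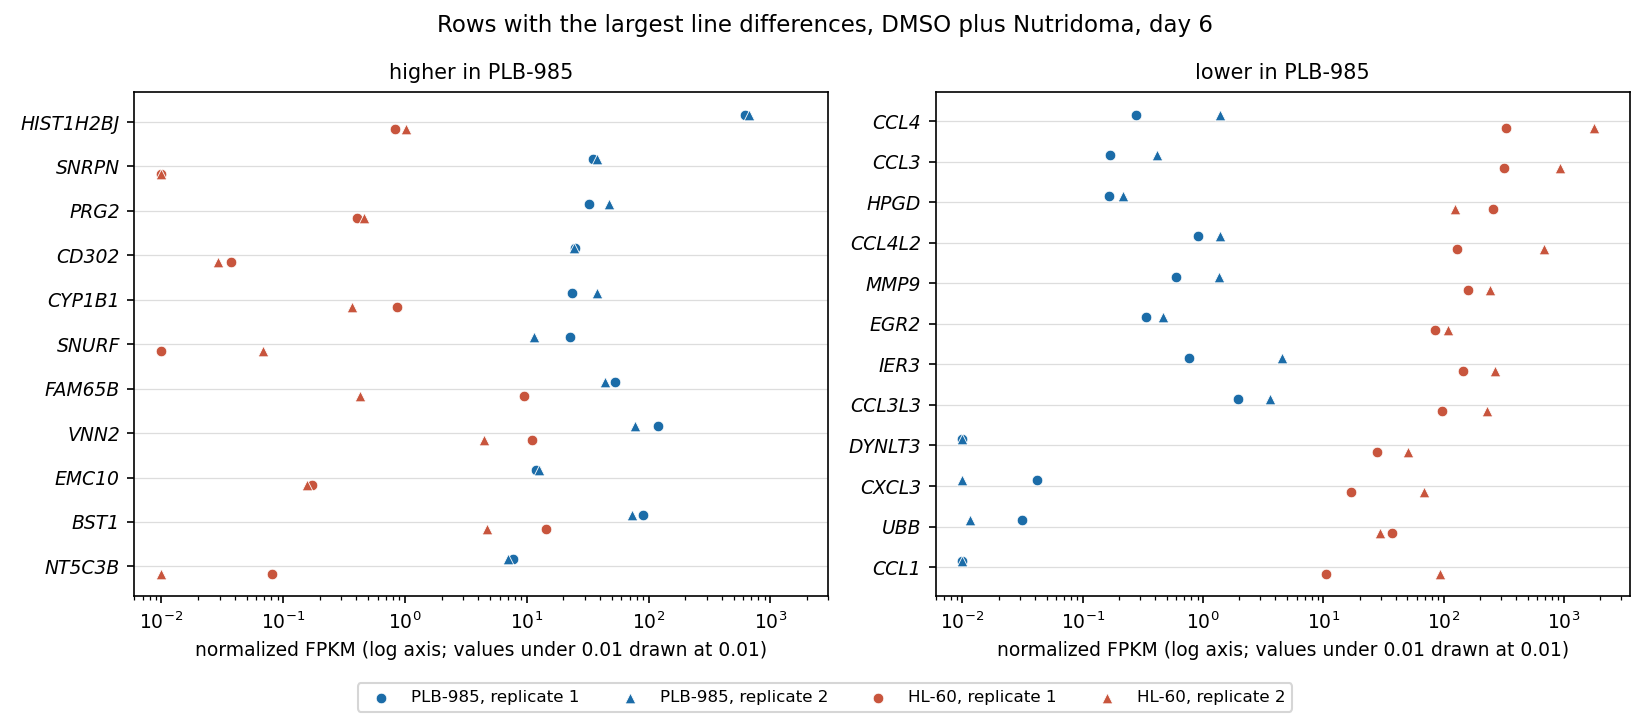
Normalized FPKM (log axis, values under 0.01 drawn at 0.01) of 11 of the 12 rows named for the strongest rise (left) and the 12 named for the strongest fall (right) in PLB-985 against HL-60 after DMSO plus Nutridoma; blue marks are PLB-985 and red marks HL-60, circles replicate 1 and triangles replicate 2. In every row both PLB-985 libraries lie on one side of both HL-60 libraries, HIST1H2BJ at 625.1 and 672.0 against 0.822 and 1.02 and CCL4 at 0.279 and 1.38 against 329.2 and 1761.3.

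The largest decreases were in C-C chemokines that attract monocytes and lymphocytes. CCL4 had 0.279 and 1.38 normalized FPKM in PLB-985 and 329.2 and 1761.3 in HL-60 cells (difference -8.77 ± 1.16 SE, limma adjusted p = 0.002). CCL3 (chr17:36088256-36090169) had 0.167 and 0.414 in PLB-985 and 319.0 and 920.1 in HL-60 cells (-8.72 ± 0.59, limma adjusted p = 9.6e-05). Both genes were close to undetected in PLB-985 and among the abundant transcripts of HL-60. CCL4L2 and CCL3L3 moved the same way, but are near-identical copies between which reads may have been split. CCL1, another chemokine of chromosome 17, was listed at 0 in both PLB-985 libraries and had 10.5 and 92.4 in HL-60.

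Of 19 inflammatory cytokines and NF-kB targets on the list, 17 were tested and 16 fell in PLB-985, with a median difference of -4.02. CCL20, CXCL2, CXCL3 and PTGS2 had passed the filter on low values only through the HL-60 libraries where they were high, so that their direction was fixed, and of the other 13 members 12 were lower, with a median of -3.59. The 2 left out, IL6 and CXCL1, were at most 0.0567 normalized FPKM in all 4 libraries. None of the 17 was higher in limma, also at an unadjusted p under 0.05, and REL, a subunit of NF-kB, had a difference of -0.31 (limma adjusted p = 0.40). The levels of the list summed to 435.0 and 643.3 normalized FPKM in PLB-985 and 5123.8 and 12076.6 in HL-60. IL1B, which encodes the cytokine interleukin 1 beta, had 10.6 and 20.3 in PLB-985 and 143.8 and 774.7 in HL-60 cells (-4.41 ± 0.47, limma adjusted p = 0.00072). CXCL8, the ligand of CXCR1 and CXCR2, had 38.2 and 55.7 in PLB-985 and 497.8 and 1339.8 in HL-60 (-4.12 ± 0.67, limma adjusted p = 0.0045). These transcripts stayed present in PLB-985, at lower levels than in either HL-60 library. TNF had 17.4 and 36.7 in PLB-985 and 172.9 and 307.3 in HL-60 (-3.14 ± 0.64, limma adjusted p = 0.011). NFKBIA, the inhibitor that NF-kB itself induces, had 73.6 and 43.4 in PLB-985 and 659.5 and 723.1 in HL-60 (-3.59 ± 0.63, limma adjusted p = 0.006). The genes whose promoters are printed above were nearly silent in PLB-985. CXCL3 had 0.0415 and 0 in PLB-985 and 17 and 69.1 in HL-60. CXCL2 had 0.0349 and 0.192 in PLB-985 and 8.61 and 34.5 in HL-60. CCL20 had 0.089 and 0.302 in PLB-985 and 4.73 and 70.0 in HL-60. In all 3 the HL-60 replicates were further apart than in NFKBIA, with replicate 2 higher. PTGS2, the inducible cyclooxygenase, was listed at 0 in both PLB-985 libraries and had 18.9 and 9.67 in HL-60. In bulk RNA, fewer cells of a type and less RNA per cell cannot be told apart.

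Most of these differences were small in the other states. Over all rows 5.23% were lower with DMSO and 6.25% in undifferentiated cells. Among the 17, 1 was lower with DMSO and 1 in undifferentiated cells, with medians of -0.52 and -0.11, and in both cases the gene was CCL2. These medians include the 4 members that the filter let in through HL-60 with Nutridoma, so part of the contrast between states was fixed. Medians of the other 13 were not taken in these states. CCL2, the monocyte chemoattractant, had 87.2 and 256.8 normalized FPKM in PLB-985 and 2261.1 and 2654.0 in HL-60 with DMSO plus Nutridoma, and the difference was -4.02 there, -3.29 with DMSO and -4.38 in undifferentiated cells. CXCL8 with DMSO had 59.6 and 83.7 in PLB-985 and 45.5 and 47.2 in HL-60, so that the groups were in the other order, with a difference of 0.60 that did not pass the test (limma adjusted p = 0.66). The test of the difference between states, an interaction term in the same fit, passed for 71 of all rows against DMSO (0.515%, with 0.0363% more positive and 0.479% more negative with Nutridoma) and for 578 against the undifferentiated state (4.2%, with 1.36% more positive and 2.83% more negative). Against DMSO it passed for CCL3 among the 13 members whose direction the filter left free. CXCL3, CXCL2 and PTGS2 also passed, but are among the 4 named above whose direction the filter fixed. Leaving out HL-60 replicate 2 gave 9 lower of 14 tested, with a median of -2.85, and leaving out PLB-985 replicate 2 gave 10 of 17.

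**Figure D2:**
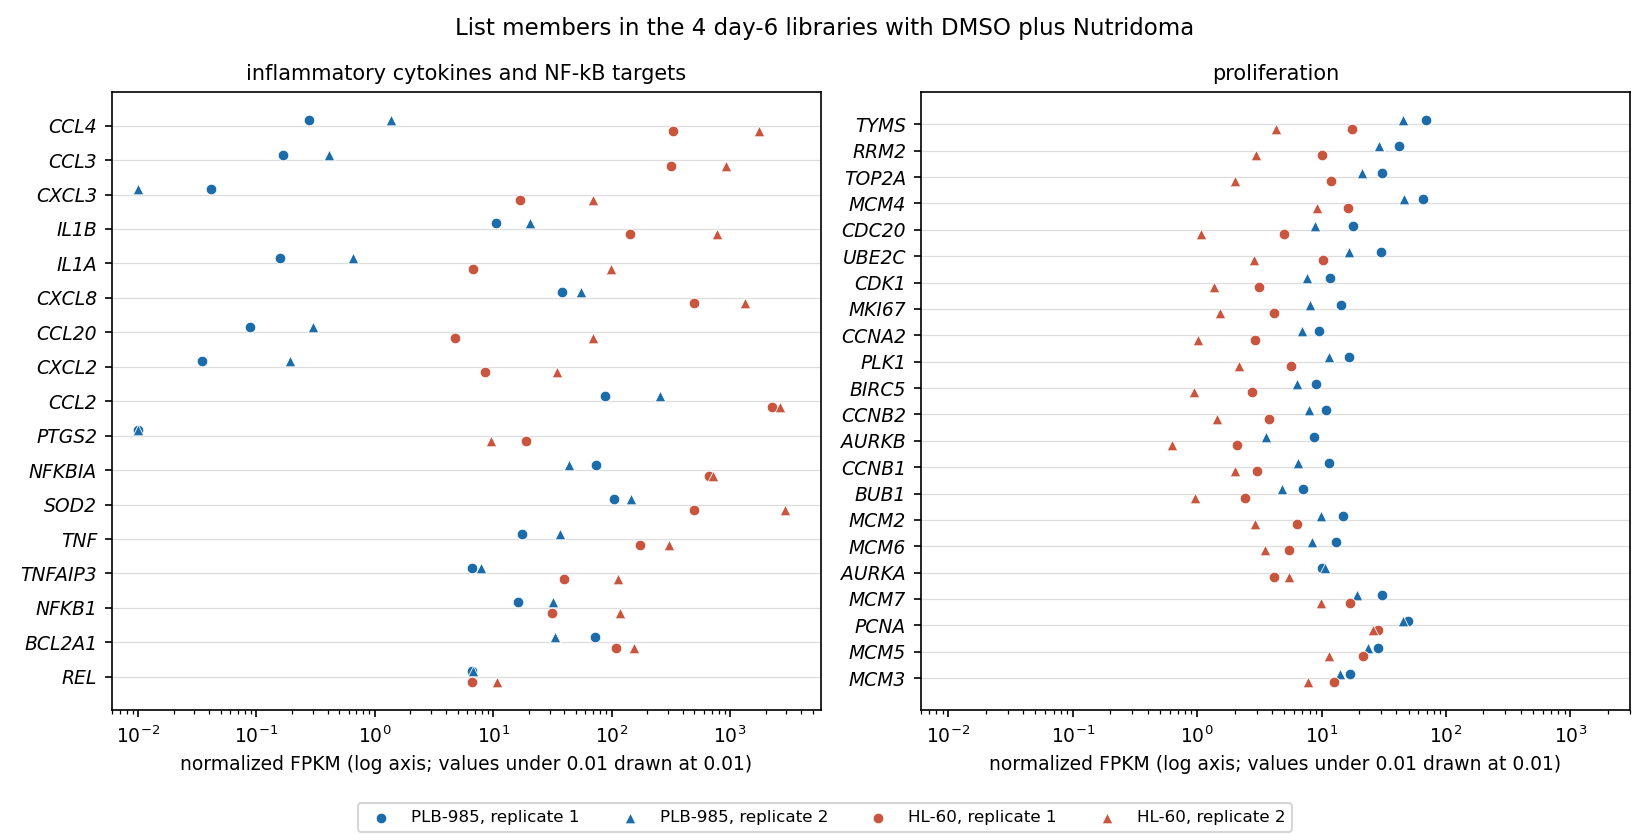
Normalized FPKM (log axis, values under 0.01 drawn at 0.01) of the tested members of the inflammatory list (17, left) and the proliferation list (22, right) in the 4 libraries with DMSO plus Nutridoma; blue PLB-985, red HL-60, circles replicate 1, triangles replicate 2. IL1B lies at 10.6 and 20.3 in PLB-985 against 143.8 and 774.7 in HL-60, whereas TYMS lies at 69.4 and 45.4 against 17.6 and 4.3.

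Other genes among the 12 largest decreases had the following levels. MMP9, the gelatinase of neutrophil granules and macrophages, had 0.598 and 1.35 normalized FPKM in PLB-985 and 157.9 and 242.4 in HL-60 (-6.66 ± 0.22, limma adjusted p = 3.2e-06). With DMSO its levels were 0.301 and 0.552 in PLB-985 and 9.83 and 11.8 in HL-60 (-3.05), and the differences of the 2 states differed from each other (limma adjusted p = 0.0043). HPGD (chr4:174490175-174523154), which inactivates prostaglandins, had 0.166 and 0.216 in PLB-985 and 257.3 and 124.1 in HL-60 cells (-7.24 ± 0.34, limma adjusted p = 1.6e-05). It was low in undifferentiated cells of both lines, with 0.895 and 0.107 in PLB-985 and 0.31 and 0.782 in HL-60. EGR2 (chr10:62811996-62819167), a zinc finger factor of macrophages, had 0.336 and 0.466 in PLB-985 and 84.7 and 108.1 in HL-60 (-6.11 ± 0.20, limma adjusted p = 3.2e-06). With DMSO its levels were 0.565 and 0.702 in PLB-985 and 1.17 and 1.31 in HL-60, and no setting tried ended the call that the line difference was larger with Nutridoma (-5.65 ± 0.28, limma adjusted p = 0.0003). IER3, an early response gene, had 0.767 and 4.57 in PLB-985 and 143.5 and 269.7 in HL-60 (-5.98 ± 0.52, limma adjusted p = 0.00032).

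Transcripts of monocytes and macrophages were lower in PLB-985 too. Of 20 markers 10 were tested, and 7 were lower and 0 higher, with a median of -1.36. Without HL-60 replicate 1 the counts were 5 lower and 1 higher of 9, with a median of -0.72. Their levels summed to 345.1 and 373.6 normalized FPKM in PLB-985 and 1060.4 and 927.7 in HL-60. The number listed at 0 was 8 in both PLB-985 libraries and 2 and 1 in the HL-60 libraries, and MRC1, MARCO, C1QB and C1QC were at 0 in both PLB-985 libraries. CD14, the lipopolysaccharide co-receptor, had 18.5 and 23.2 in PLB-985 and 517.6 and 376.3 in HL-60 (-4.35 ± 0.28, limma adjusted p = 7.5e-05). CSF1R, the receptor for macrophage colony-stimulating factor, had 1.57 and 1.08 in PLB-985 and 53.4 and 89.7 in HL-60 (-4.92 ± 0.23, limma adjusted p = 1.4e-05). Its difference was larger than with DMSO, where it was -2.05 (interaction, limma adjusted p = 0.013), whereas that of CD14 was -5.13 with DMSO (limma adjusted p of the interaction = 0.45). C1QA, a complement gene of macrophages, had 0 and 0.0319 in PLB-985 and 11.6 and 7.0 in HL-60 (-3.30 ± 0.35, limma adjusted p = 0.00072). Not every marker followed: CD163, the scavenger receptor for hemoglobin, had 15.4 and 9.6 in PLB-985 and 10 and 5.38 in HL-60 (0.65, limma adjusted p = 0.075). MSR1 was listed at 0 in all 4 libraries. These markers moved with the inflammatory genes, and their part in that result was not tested.

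Genes of antigen presentation to CD4 T cells had low levels throughout. The 13 MHC class II genes summed to 0.962 and 0.566 normalized FPKM in PLB-985 and 14.2 and 8.85 in HL-60. Only 3 passed the filter, CD74 and HLA-DRA through the HL-60 libraries alone, and without either HL-60 library 1 gene was left to test and it was not called. CD74, the invariant chain, had 0.0465 and 0 in PLB-985 and 6.47 and 3.27 in HL-60, and HLA-DRA was listed at 0 in both PLB-985 libraries and had 1.99 and 2.18 in HL-60. With DMSO CD74 was at most 0.0596 in all 4 libraries. Of 12 genes of MHC class I and peptide loading 4 rose and 2 fell, where 11.2% of all rows were higher and 12.8% lower. HLA-C had 936.8 and 832.8 in PLB-985 and 527.7 and 425.8 in HL-60 (0.90, limma adjusted p = 0.0054).

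Late neutrophil genes mostly went the other way from the monocyte markers. Of the 15 tested, 6 rose and 0 fell, with a median of 1.17. At an unadjusted p under 0.05 in limma 10 were higher and 1 lower. TREM1, another member, had a difference of -1.3 that did not pass (limma adjusted p = 0.055). CSF3R, the receptor for granulocyte colony-stimulating factor, had 177.6 and 129.4 normalized FPKM in PLB-985 and 50.4 and 24 in HL-60 (2.09 ± 0.29, limma adjusted p = 0.0025). VNN2, a pantetheinase on the neutrophil surface, had 120.2 and 78.1 in PLB-985 and 11.1 and 4.49 in HL-60 (3.59 ± 0.52, limma adjusted p = 0.0029). With DMSO VNN2 was in the other order, 10.8 and 33.7 in PLB-985 and 36.0 and 41.5 in HL-60, and the difference between the states did not pass the test (limma adjusted p = 0.052). AQP9, VNN3 and FCGR3B also rose, with FCGR3B at 1.6 and 0.77 in PLB-985 and 0.395 and 0.0562 in HL-60 and uncertain because FCGR3A is a near-identical copy. The most abundant members did not pass: S100A8 had 5959.6 and 4055.0 in PLB-985 and 2735.7 and 1505.5 in HL-60 (1.28, limma adjusted p = 0.10), with no overlap, and S100A9 had a difference of 0.37. With DMSO 0 of the 15 passed in limma (2 higher and 2 lower at an unadjusted p under 0.05) and in undifferentiated cells 1. Over all rows 10.4% passed with DMSO and 14.1% in undifferentiated cells. Without PLB-985 replicate 1 the count with Nutridoma was 2, and without HL-60 replicate 1 it was 9 higher and 1 lower.

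Further genes of neutrophil motility and surface were among the 12 largest increases. FAM65B (RIPOR2), an inhibitor of RHOA, had 53.1 and 44.1 normalized FPKM in PLB-985 and 9.46 and 0.424 in HL-60 (3.68 ± 0.69, limma adjusted p = 0.0075). BST1, the ectoenzyme CD157, had 90.3 and 72.7 in PLB-985 and 14.4 and 4.68 in HL-60 (3.13 ± 0.32, limma adjusted p = 0.00066), and was also higher with DMSO (1.90) and in undifferentiated cells (1.23).

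Granule genes were divided. Of 15 azurophil genes 3 rose and 0 fell, where 11.2% of all rows were higher and 12.8% lower. MPO, the myeloperoxidase, had 671.1 and 194.7 normalized FPKM in PLB-985 and 195.7 and 15.7 in HL-60 (2.66 ± 0.60, limma adjusted p = 0.016). The ranges of the lines touched, since PLB-985 replicate 2 was at 194.7 and HL-60 replicate 1 at 195.7, and without the replicate block, without PLB-985 replicate 1 or without HL-60 replicate 2 none of the 15 was called. BPI, a protein that binds lipopolysaccharide, had 38.4 and 26.4 in PLB-985 and 20.9 and 9.25 in HL-60 (1.13, limma adjusted p = 0.022). Of 18 genes of specific and gelatinase granules 11 were tested, and HP and CAMP rose while MMP9, CHI3L1 and FCN1 fell. The call was lost in 5 of 16 settings for HP and 6 of 14 for CAMP. For MMP9, CHI3L1 and FCN1 it was lost in 0, 1 and 7 of 16. Those not tested, LTF, LCN2, MMP8, OLFM4, CRISP3, TCN1 and ARG1, were under 1 normalized FPKM in all 4 libraries. CHI3L1, a chitinase-like protein, changed order between the states: with Nutridoma it had 30.4 and 18.2 in PLB-985 and 85.1 and 99.2 in HL-60 (-1.92 ± 0.34, limma adjusted p = 0.0058). With DMSO it had 320.6 and 203.8 in PLB-985 and 138.0 and 76.7 in HL-60 (1.30, limma adjusted p = 0.046), and the interaction passed (limma adjusted p = 0.036). Of the 6 oxidase subunits 0 were called in limma (1 lower at an unadjusted p under 0.05), and CYBB had 176.0 and 143.2 in PLB-985 and 173.2 and 227.3 in HL-60.

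Among 15 tested myeloid transcription factors 4 rose and 4 fell, where 11.2% of all rows were higher and 12.8% lower. CEBPE, which drives granulocyte maturation, had 35.1 and 26 normalized FPKM in PLB-985 and 12.1 and 2.99 in HL-60 (2.11 ± 0.42, limma adjusted p = 0.0099). GFI1, a repressor that favours granulocytes, had 16.9 and 9.23 in PLB-985 and 5.88 and 0.804 in HL-60 (1.94 ± 0.38, limma adjusted p = 0.0091). CEBPD and MYB also rose, and EGR2, EGR1 and ZEB2 were among those that fell. EGR1 had 2.2 and 7.38 in PLB-985 and 100.6 and 64.9 in HL-60 (-3.98 ± 0.51, limma adjusted p = 0.0017), while in undifferentiated cells it was higher in PLB-985 (1.92, limma adjusted p = 0.043). SPI1 and CEBPA, which act across the myeloid lineage, were not called. SPI1 had 253.3 and 205.7 in PLB-985 and 260.4 and 275.6 in HL-60, a difference of -0.23.

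Most receptors for chemoattractants did not pass the test. Of 19 tested, 2 rose and 5 fell, with a median of -0.06, where 11.2% of all rows were higher and 12.8% lower. Without HL-60 replicate 1 the counts were 6 higher and 4 lower of 18 with a median of 0.42, and without HL-60 replicate 2 they were 0 and 3 with -0.41, so the balance of this list rested on 1 library. FPR1, the receptor for formyl peptides, had 333.1 and 211.2 normalized FPKM in PLB-985 and 238.2 and 198.6 in HL-60 (0.28 ± 0.25, limma adjusted p = 0.45). CCRL2, a chemerin receptor that does not signal, had 0.196 and 0.105 in PLB-985 and 9.71 and 56.7 in HL-60 (-4.43 ± 0.59, limma adjusted p = 0.002). PTAFR, the receptor for platelet-activating factor, had 14.6 and 9.53 in PLB-985 and 38.9 and 91.6 in HL-60 (-2.24 ± 0.35, limma adjusted p = 0.0036). C3AR1 and CCR1 also fell. FPR2, another formyl peptide receptor, had its largest difference before differentiation. In undifferentiated cells it had 0.361 and 0.424 in PLB-985 and 20.9 and 20.4 in HL-60 (-3.96), with DMSO 42.1 and 80.1 in PLB-985 and 177.0 and 189.3 in HL-60 (-1.64), and with Nutridoma 106.4 and 100 in PLB-985 and 163.3 and 151.9 in HL-60. The last difference was -0.61 (limma adjusted p = 0.099) and differed from that in undifferentiated cells (interaction, limma adjusted p = 0.002). ICAM1, an adhesion molecule that NF-kB induces, had 27.0 and 30.6 in PLB-985 and 157.1 and 498.1 in HL-60 (-3.24 ± 0.56, limma adjusted p = 0.0056). FCGRT, the neonatal Fc receptor, had 3.12 and 3.51 in PLB-985 and 32.7 and 40.0 in HL-60 (-3.11 ± 0.14, limma adjusted p = 1.3e-05). ITGAM was lower by a smaller amount in PLB-985 with Nutridoma (-0.63, limma adjusted p = 0.025) and with DMSO (-0.71, limma adjusted p = 0.029), and the call with Nutridoma was lost in 7 of 16 settings.

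Genes of the cell cycle and DNA replication were higher in PLB-985. All 22 on the list were tested, and 20 rose and 0 fell, with a median of 1.63. Their levels summed to 517.3 and 361.9 normalized FPKM in PLB-985 and 196.8 and 101.3 in HL-60. TYMS had 69.4 and 45.4 in PLB-985 and 17.6 and 4.3 in HL-60 (2.53 ± 0.47, limma adjusted p = 0.0073). TOP2A, the topoisomerase of dividing cells, had 30.7 and 21.2 in PLB-985 and 11.8 and 2.02 in HL-60 (2.09 ± 0.45, limma adjusted p = 0.013). MKI67, the Ki-67 antigen, had 14.3 and 8.14 in PLB-985 and 4.17 and 1.52 in HL-60 (1.71 ± 0.33, limma adjusted p = 0.0083). In each of these 3 genes the lower PLB-985 library was above the higher HL-60 library. The other minichromosome maintenance genes with a promoter shown above moved less: MCM6 had 13.1 and 8.42 in PLB-985 and 5.52 and 3.52 in HL-60 (1.09, limma adjusted p = 0.0037), and MCM7 had a difference of 0.85. MCM3 and CCNA2 did not pass (0.58 and 1.71, limma adjusted p = 0.078 and 0.43), and CCNA2 was listed at 0 in 1 undifferentiated library, which widens its SE in the shared fit. In undifferentiated cells, which divide, TYMS had 349.5 and 363.3 in PLB-985 and 219.2 and 291.9 in HL-60. With DMSO and in undifferentiated cells 1 of the 22 was higher in each state, with medians of 0.66 and 0.30, where 5.14% and 7.88% of all rows were higher. No member passed the test of the difference between states in limma, although 10 were more positive with Nutridoma than with DMSO at an unadjusted p under 0.05. Of all 13778 rows 1801 passed that test against DMSO at an unadjusted p under 0.05, in either direction. Without the replicate block 11 of the 22 were called, without HL-60 replicate 2 also 11, and without PLB-985 replicate 1 it was 9.

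**Figure D3:**
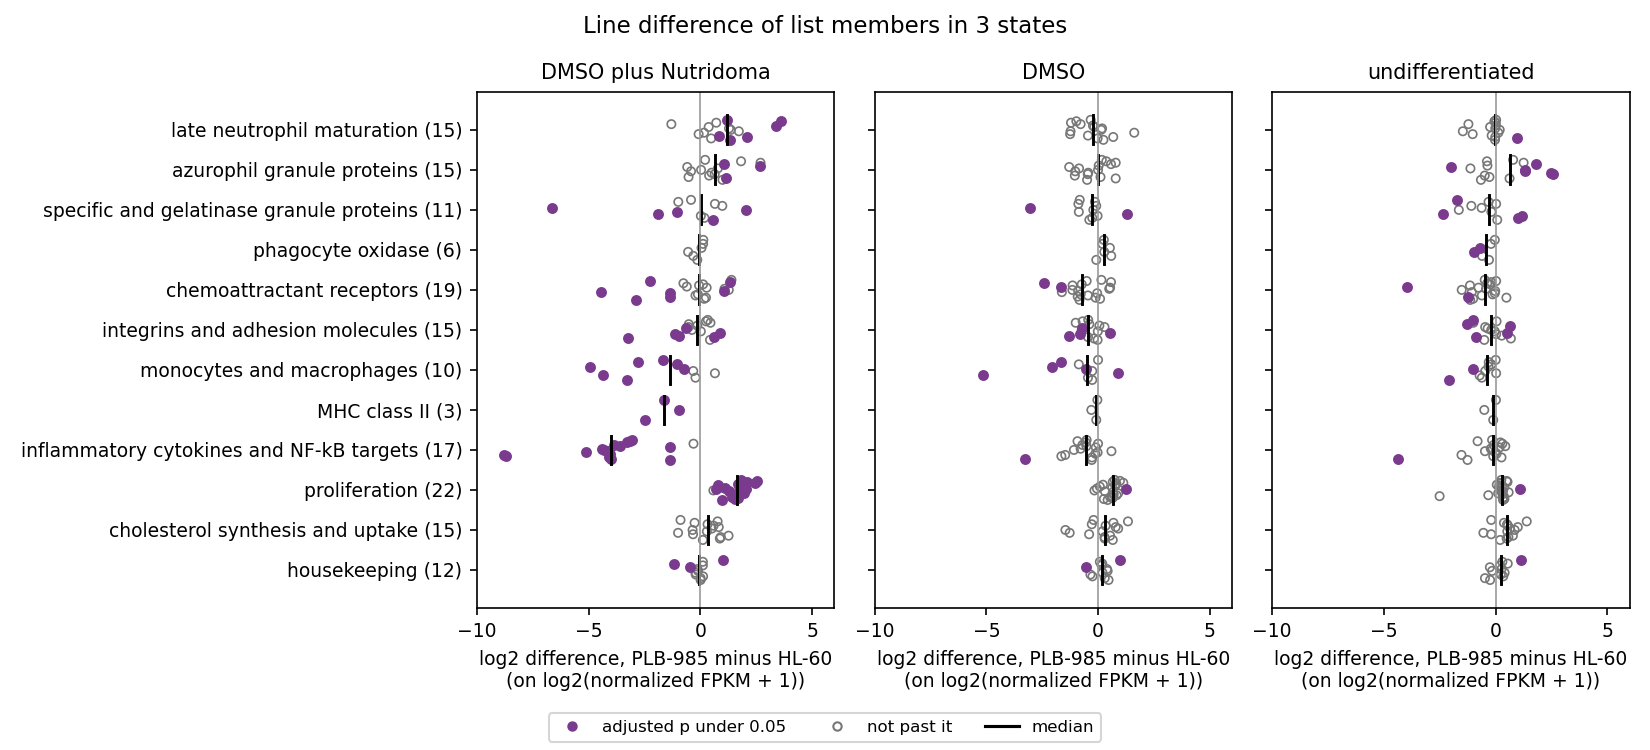
Line differences (PLB-985 minus HL-60, on log2(normalized FPKM + 1)) of the tested members of 12 gene lists in DMSO plus Nutridoma, DMSO and undifferentiated cells; each point is a gene, purple where the adjusted p was under 0.05, and black bars are medians. The inflammatory list lies at a median of -4.02 with Nutridoma, -0.52 with DMSO and -0.11 undifferentiated, and the proliferation list at 1.63, 0.66 and 0.30. Of the 17 inflammatory members, 4 passed the filter only through the HL-60 libraries with Nutridoma, so part of that contrast was fixed.

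Another set of genes differed between the lines in all 3 states. HIST1H2BJ (chr6:27125897-27132795), a histone H2B gene, had 625.1 and 672.0 normalized FPKM in PLB-985 and 0.822 and 1.02 in HL-60 (8.40 ± 0.13, limma adjusted p = 8e-08). With DMSO it had 601.5 and 578.1 in PLB-985 and 1.1 and 0.81 in HL-60, and in undifferentiated cells 1011.9 and 1030.5 in PLB-985 and 0.706 and 1.14 in HL-60. The PLB-985 line carries an H2B fusion, and how many of these reads came from it was not tested. Of the other 4 histone H2B genes tested, none rose and HIST2H2BE and HIST1H2BK fell. SNRPN (chr15:24823637-24978723), an imprinted gene for a splicing protein, had 35.3 and 37.8 in PLB-985 and 0 and 1.96e-05 in HL-60 with Nutridoma, and 38.8 and 41.6 in PLB-985 against 0 and 0.0375 in HL-60 in undifferentiated cells. SNURF, which shares its transcript, followed it. CD302 (chr2:159768628-159798255), a C-type lectin receptor, had 25.1 and 24.4 in PLB-985 and 0.0374 and 0.0289 in HL-60 (4.64 ± 0.12, limma adjusted p = 1.1e-06), with differences of 4.44 with DMSO and 3.72 in undifferentiated cells, the last of another size by the test (interaction, limma adjusted p = 0.027). EMC10 (chr19:50476400-50490871), a subunit of the membrane protein insertion complex of the endoplasmic reticulum, had 12 and 12.7 in PLB-985 and 0.174 and 0.156 in HL-60 (3.52 ± 0.14, limma adjusted p = 1.2e-05). In the other direction, UBB (chr17:16380798-16382745), a polyubiquitin gene, had 0.0312 and 0.0115 in PLB-985 and 37.5 and 29.3 in HL-60 (-5.06 ± 0.17, limma adjusted p = 3.2e-06), with -5.27 with DMSO and -5.66 in undifferentiated cells. DYNLT3 (chrX:37836757-37847571), a dynein light chain, was listed at 0 in both PLB-985 libraries and had 27.8 and 50.2 in HL-60. HLA-F, a class I gene outside the classical set, had 0.103 and 0.0141 in PLB-985 and 19.3 and 16.5 in HL-60 (-4.15 ± 0.44, limma adjusted p = 0.00072). Each of these genes was near 0 in 1 line and expressed in the other in all 3 states.

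Of 7 tested markers of eosinophils, basophils and mast cells 2 were higher and 0 lower, where 11.2% of all rows were higher and 12.8% lower. EPX, the eosinophil peroxidase, had 9.24 and 4.04 normalized FPKM in PLB-985 and 0.126 and 0.00816 in HL-60 (2.75 ± 0.34, limma adjusted p = 0.0014), and was called higher in all 3 states. PRG2, the major basic protein, had 32.7 and 47.5 in PLB-985 and 0.403 and 0.461 in HL-60 (4.82 ± 1.45, limma adjusted p = 0.046). In undifferentiated cells PRG2 had 545.7 and 687.5 in PLB-985 but 2.73 and 358.1 in HL-60, and this disagreement between HL-60 replicates enters the SE of every contrast of the gene. Its call was lost in 6 of the 16 settings. The 16 markers of eosinophils, basophils and mast cells summed to 280.9 and 188.2 in PLB-985 and 60.6 and 14.6 in HL-60. CLC, the Charcot-Leyden crystal protein, had 202.7 and 117.5 in PLB-985 and 38.6 and 10.2 in HL-60 and did not pass (2.88, limma adjusted p = 0.069), and the mast cell tryptases TPSAB1 and TPSB2 were listed at 0 in all 4 libraries. CYP1B1, a cytochrome P450 that the aryl hydrocarbon receptor induces, had 23.7 and 38.0 in PLB-985 and 0.856 and 0.367 in HL-60 (4.28 ± 0.33, limma adjusted p = 0.00017), with differences of 3.05 with DMSO and 2.06 in undifferentiated cells.

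Across all called rows, 407 of the 1539 higher rows (26.4%) were also called higher in both other states and 821 (53.3%) in neither, and of the 1759 lower rows 271 (15.4%) were called lower in both and 1041 (59.2%) in neither. A call in 1 state and not in another does not show that the states differ. Of the 71 rows whose line difference was another than with DMSO, 5 were more positive and 66 more negative with Nutridoma, and of the 578 against the undifferentiated state 188 and 390. Rows that passed the filter only through the group where they were high, such as CXCL3, were not taken out of these counts. Without HL-60 replicate 1 the counts were 426 and 495 against DMSO and 710 and 910 against the undifferentiated state, and without any of the other 3 libraries they fell to 1 or 2 and 14 or 15 against DMSO. The sign of the difference with DMSO was the same for 93.1% of the higher and 90.5% of the lower rows, and in undifferentiated cells for 83.4% and 78.7%. Across rows the line difference correlated with r = 0.7 between the replicates, 0.61 with DMSO and 0.43 with the undifferentiated state, as a description over genes, which are not independent.

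Genes with another line difference than with DMSO are best seen in their levels. CST7, the protease inhibitor cystatin F, had 291.9 and 168.5 normalized FPKM in PLB-985 and 63.5 and 17.6 in HL-60 with Nutridoma, and 32.9 and 18.3 in PLB-985 and 58.3 and 37.6 in HL-60 with DMSO. The order of the lines turned, although the difference with DMSO did not pass (-0.90, limma adjusted p = 0.18), and the change of the difference was 3.59 ± 0.52 (limma adjusted p = 0.034). MCTP2, a membrane protein with C2 domains, had 30.4 and 49.0 in PLB-985 and 37.7 and 41.6 in HL-60 with Nutridoma, so that the lines overlapped, while with DMSO it had 1.21 and 2.45 in PLB-985 and 7.65 and 11.1 in HL-60 (change 1.86 ± 0.27, limma adjusted p = 0.037). FRAT2, a binding partner of GSK3, had 59.9 and 59.4 in PLB-985 and 17 and 16.1 in HL-60 with Nutridoma, and 44.4 and 47.9 in PLB-985 and 34.4 and 39.1 in HL-60 with DMSO (change 1.47 ± 0.18, limma adjusted p = 0.019). The call of CST7 was lost in 7 of 15 settings, that of MCTP2 in 8, that of FRAT2 in 3, that of CCL3 in 4 and that of EGR2 in 0. SLAMF8, a receptor of the SLAM family on myeloid cells, crossed over against the undifferentiated state. It had 0.714 and 0.413 in PLB-985 and 24.7 and 59.9 in HL-60 with Nutridoma (-4.67 ± 0.34, limma adjusted p = 0.00015), but 14.3 and 11 in PLB-985 and 0.435 and 0.649 in HL-60 in undifferentiated cells (3.14, limma adjusted p = 0.00095).

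The large changes toward a more positive difference than in the undifferentiated state included genes that were higher in HL-60 than in PLB-985 before differentiation. MS4A3, a marker of granulocyte and monocyte progenitors, had 35.1 and 18.4 normalized FPKM in PLB-985 and 19.6 and 3.67 in HL-60 with Nutridoma, and 27.8 and 18.9 in PLB-985 and 140.3 and 166.5 in HL-60 undifferentiated (change 4.12 ± 0.63, limma adjusted p = 0.013). BEX1 had 0.0804 and 0 in PLB-985 and 7.38 and 4.82 in HL-60 with Nutridoma, and 0.0844 and 0.0571 in PLB-985 and 121.1 and 214.4 in HL-60 undifferentiated (change 4.49 ± 0.41, limma adjusted p = 0.0015). PPP1R27, a regulatory subunit of protein phosphatase 1, had 0.214 and 0.187 in PLB-985 and 0.427 and 0.0353 in HL-60 with Nutridoma, and 1.19 and 0.659 in PLB-985 and 27.6 and 74.2 in HL-60 undifferentiated (change 4.59 ± 0.63, limma adjusted p = 0.0091). In all 3 genes the undifferentiated HL-60 cells had the highest levels. DHX37, an RNA helicase of ribosome assembly, was listed at 0 in both undifferentiated PLB-985 libraries and had 4.68 and 5.73 in PLB-985 with Nutridoma, and a 0 of this kind can be a failed estimate.

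The called rows were not spread evenly over the genome. On chromosome 8, 210 of 436 tested rows were higher and 19 lower in PLB-985, with a median of 0.58 (0.52 in replicate 1 and 0.61 in replicate 2), and 83.3% of rows were above 0. On chromosome 5, 30 of 617 were higher and 241 lower (median -0.40), and on chromosome 13, 7 of 262 were higher and 89 lower (median -0.38). The same 3 chromosomes stood apart with DMSO, at 0.61, -0.29 and -0.34, and in undifferentiated cells, at 0.77, -0.36 and -0.29. In windows of 10 Mb (GENCODE 44, GRCh38), 22 of 273 had a median past 0.3 in the same direction in all 3 states, 10 of 13 on chromosome 8, 7 of 17 on chromosome 5 and 3 of 8 on chromosome 13, and 1 each on chromosomes 1 (150 to 160 Mb, 0.46) and 15 (40 to 50 Mb, -0.44). The most one-sided was 140 to 150 Mb of chromosome 8, where 53 of 69 rows were higher, 0 lower and the median was 0.98. Without these 3 chromosomes 1292 rows were higher and 1410 lower of 12463. CEBPD, MCM4 and YWHAZ are on chromosome 8, and EGR1, CD14, CSF1R, CD74 and VCAN on chromosome 5, and the part of the chromosome in their differences was not tested. CCL3, CCL4, IL1B, CXCL8, VNN2, TYMS and TOP2A lie on other chromosomes. The tested mitochondrial genes had a median of -0.63, with 5 of 17 lower.

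**Figure D4:**
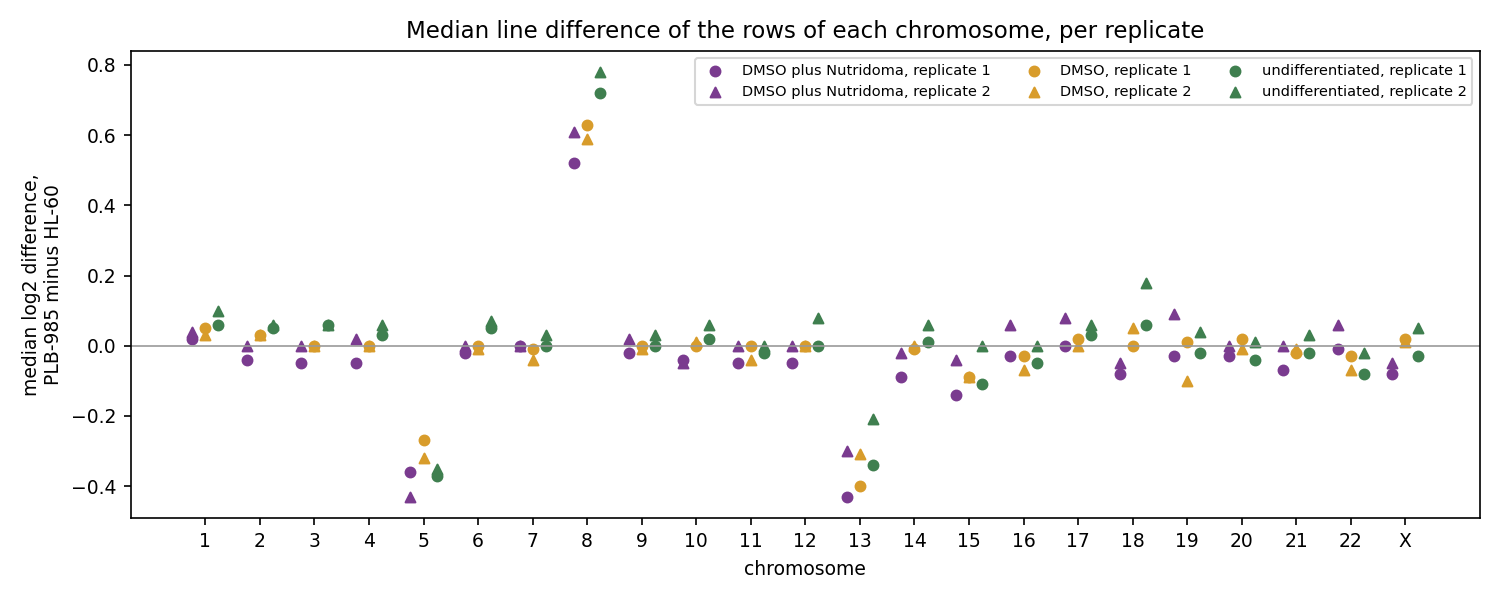
Median line difference (PLB-985 minus HL-60, on log2(normalized FPKM + 1)) of the tested rows of each chromosome, 1 to 22 and X, for each replicate (circles 1, triangles 2) in DMSO plus Nutridoma (purple), DMSO (yellow) and undifferentiated cells (green). Chromosome 8 lies at 0.52 and 0.61 with Nutridoma and chromosomes 5 and 13 lie at -0.21 or below in all 6 replicate comparisons, while the others lie near 0.

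The other lists were as follows. Of 15 tested genes of cholesterol synthesis and uptake 0 were called in limma (1 higher at an unadjusted p under 0.05, median 0.32, and -0.39 without PLB-985 replicate 1). Of 15 hypoxia and glycolysis genes 0 rose and 2 fell, and of 12 interferon response genes 3 rose, such as ISG15 (0.90, limma adjusted p = 0.015, lost in 4 of 16 settings), and 3 fell, such as OAS1 (-1.52, limma adjusted p = 0.01, lost in 2 of 15). The rise of IFITM1 was lost in 10 of 16 settings. Of 12 housekeeping genes YWHAZ was higher and TFRC and SDHA lower, and GAPDH and ACTB had differences of 0.01 each. Over all rows 11.2% were higher and 12.8% lower.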

How the data were processed

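PolyA RNA was read as single-end reads of 75 bases. The authors aligned them with STAR 2.4 to GRCh38.p5 with GENCODE 24, estimated FPKM with Cufflinks 2.2.1, multiplied each library by 1 factor from uniformly expressed genes, and deposited log10 values after adding 0.0001 to every value. Here the log10 values were turned back into normalized FPKM, and the rows that reached 1 normalized FPKM in 2 or more of the 12 libraries with a replicate were fitted with limma 3.58.1 in R 4.3.3 (lmFit, eBayes with trend, two-sided) on log2(normalized FPKM + 1), with 6 groups and the replicate number as a block. All 12 libraries shared 1 estimate of the spread. The sources give the replicates as made on separate days, and the deviations of same-numbered libraries correlated over all 15 pairs of groups (r of 0.65 to 0.85), so the numbers were taken as pairs. Single libraries of PLB-985 at days 2 and 4 entered no fit. Positions came from GENCODE 44 and promoters from RefSeq, and tables were made with Python 3.11.15.

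Named genes are the 12 largest increases and decreases among called rows with an NCBI gene ID, moving one way in both replicates and not at 0 in 1 replicate while at 5 normalized FPKM or more in the other, then by the same rule the 5 largest each way of each interaction, and members of 24 gene lists. The members and lists were chosen with earlier results of these data known. The calculations were tested on simulated data. Alternatives were other scalings, pseudocounts, filters and sets of libraries, and no replicate block. Some items are not reported here.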

Additional observations from a re-analysis of the deposited data

Results flagged for a closer look

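The line difference after DMSO plus Nutridoma was of another size than with DMSO in 71 rows. In the rows named by the rule the change, on log2(normalized FPKM + 1), was 3.59 for CST7, 1.86 for MCTP2, 1.47 for FRAT2 and 1.37 for IGFBP2, which were more positive with Nutridoma. It was -7.08 for CCL3, -5.65 for EGR2, -5.1 for CXCL3, -5.02 for IER3 and -4.82 for SLAMF8, which were more negative. IGFBP2, a binding protein of insulin-like growth factors, was higher in PLB-985 in both states, with 11.7 and 6.03 normalized FPKM in PLB-985 and 1.34 and 0.304 in HL-60 with Nutridoma, and 6.85 and 3.29 in PLB-985 and 2.6 and 1.15 in HL-60 with DMSO. The call was lost in 8 of 15 settings for IER3, 6 of 15 for IGFBP2, 1 of 15 for SLAMF8 and 4 of 13 for CXCL3. The direction of CXCL3 was also fixed by the filter on low values. For CST7, MCTP2, FRAT2, CCL3 and EGR2 these counts are given above.

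Against the undifferentiated state 578 rows had another line difference. The change was 4.59 for PPP1R27, 4.49 for BEX1, 4.12 for MS4A3, 4.09 for CST7 and 3.85 for DHX37, of which DHX37 was listed at 0 in both undifferentiated PLB-985 libraries. It was -8.61 for CCL3, -7.81 for SLAMF8, -7.28 for IER3, -7.16 for HPGD and -6.51 for EGR2.

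HIST1H2BJ was also high in the single PLB-985 libraries that enter no comparison, with 923.8 normalized FPKM at day 2 and 603.0 at day 4 of DMSO plus Nutridoma, where the HL-60 libraries of day 6 had 0.822 and 1.02.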

How the results depend on the processing

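No named gene that was called changed sign under any alternative run, although the balance of higher and lower rows turned on FPKM without the authors' scaling. Without the replicate block 828 rows were higher and 995 lower in PLB-985 with DMSO plus Nutridoma, 2 and 33 had a more positive or more negative line difference than with DMSO, and 70 and 202 than undifferentiated. In the fit of the 4 libraries alone 866 were higher and 1051 lower. Without 1 library at a time the main counts ran over 586 to 1792 higher and 785 to 1828 lower, those against DMSO over 1 to 426 and 14 to 495, and those against the undifferentiated state over 35 to 710 and 125 to 910, the highest in each case without HL-60 replicate 1; the lone library of a group is then assumed to vary like the other groups. On FPKM without the authors' scaling the split was 2270 higher and 1304 lower, and the median of all rows was 0.12.

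Against DMSO, a pseudocount of 0.1 gave 2 and 9, no filter 28 and 102, a filter of 5 normalized FPKM 3 and 23, and the 8 libraries of day 6 gave 29 more negative. Against the undifferentiated state the filter of 5 gave 236 more negative. The median of chromosome 8 less that of all rows was 0.59 and became 0.76 and 0.67 with pseudocounts of 0.1 and 0.5, 0.03 with no filter, which adds silent rows, 0.68 with the filter of 5, 0.65 with the 8 libraries of day 6, 0.66 with 4 libraries and 0.63 with NCBI genes only. For chromosome 5 (-0.38) it became -0.47 with a pseudocount of 0.1, -0.03 with no filter, -0.47 with the filter of 5 and -0.46 with NCBI genes only, and for chromosome 13 (-0.37) -0.44 with a pseudocount of 0.1 and -0.03 with no filter.

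Of 124 called named genes, 83 kept their call without the block, 86 with no filter, 75 without PLB-985 replicate 1, 69 without PLB-985 replicate 2, 69 of 116 without HL-60 replicate 2 and 104 to 124 under the settings other than these and the fit without HL-60 replicate 1 (100 of 116). With 2 libraries a group and no read counts here, counting error could not be separated from culture differences.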
